A study of Mus musculus with 6 samples.

Results

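NF-kappaB was examined here through 33 genes: its subunits, its inhibitors, the kinases and adaptors that control it, and genes it induces. A gene was taken where a probe set of the array carried its symbol alone, and the probe set with the highest mean over the 6 arrays stood for the gene. This gave 31 of the 33 genes, out of 12393 genes on the array; Nfkb1 and Chuk were not analysed here. Of the 31, 21 were treated as pathway components and 10 as induced targets.

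The samples were liver tumours of 6 male mice, each on its own Affymetrix array. Every mouse, control or transgenic, had received a single intraperitoneal dose of the liver carcinogen N-nitrosodiethylamine (DEN) of 10 µg per g of its weight when 14 days old, and the tumours were taken at 28 weeks. The control group was 3 wild-type (WT) mice, and the other was 3 Alb/AEG-1 transgenic mice, which carry AEG-1 (astrocyte elevated gene-1, the product of Mtdh) on a construct named for albumin, whose promoter is active in hepatocytes. In the labels both groups have CD-1 as background strain, the injected embryos came from B6CBAF1/J matings, and there is no number of founder lines. The titles number the animals, and these numbers fall into a lower set, with wild-type replicate 1 and the first and second Alb/AEG-1 replicates, and a higher set with the other 3 arrays; the labels do not call this a batch.

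NF-kappaB is a family of dimeric transcription factors that waits in the cytoplasm, held there by IkappaB proteins. Signals from receptors for tumour necrosis factor, interleukin-1 and microbial products run through TRAF, IRAK and cIAP proteins to the IkappaB kinase complex, which marks IkappaB for destruction and frees the dimers to enter the nucleus. Among the genes then switched on are cytokines and adhesion molecules, and also the pathway's own inhibitors, so the response limits itself. In liver the pathway works both in hepatocytes, where it protects against cell death, and in macrophages, where it drives cytokine production. AEG-1 is reported to bind the p65 subunit and to activate NF-kappaB. This comparison addresses only the transcript levels of the pathway's genes and targets. Arrays measure transcripts only, so the release of NF-kappaB from its inhibitors was not measured.

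The binding sequence of the factor, the kappaB consensus, was searched as a single pattern of 10 bases. The search covered both strands in the 250 bases before each RefSeq start (assembly GRCm38.p6). Promoter sequences were matched for 25 of the 31 members by symbol, and 8 of these held a match (32.0%), against 541 of 9887 array genes with a promoter (5.47%). The members were listed as genes of this pathway and its targets, so a larger share than among all genes can follow from the list itself. Genes can have several starts. By promoter, 10 of 33 promoters of members held a match (30.3%), against 574 of 12566 promoters of array genes (4.57%) and 3.9% of all 32851 promoters of the table. The matches below, at most 2 per gene, are printed 5′ to 3′ on the strand of the gene with the 10 matching bases in capitals.
Nfkb2, chr19:46304688-46304717, plus strand: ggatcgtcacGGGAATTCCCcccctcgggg
Nfkb2, chr19:46305695-46305724, plus strand: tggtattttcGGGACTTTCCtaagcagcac
Rel, chr11:23771042-23771071, minus strand: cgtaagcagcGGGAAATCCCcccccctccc
Nfkbia, chr12:55492657-55492686, minus strand: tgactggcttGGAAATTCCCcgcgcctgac
Nfkbie, chr17:45555584-45555613, plus strand: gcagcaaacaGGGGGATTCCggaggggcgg
Tnip1, chr11:54962978-54963007, minus strand: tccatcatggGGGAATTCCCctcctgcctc
Tnfaip3, chr10:19015516-19015545, minus strand: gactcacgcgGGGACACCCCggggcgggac
Il6, chr5:30013060-30013089, plus strand: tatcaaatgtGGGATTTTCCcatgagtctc
Ccl20, chr1:83116676-83116705, plus strand: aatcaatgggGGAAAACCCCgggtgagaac
Of these 8 genes, 6 are pathway components (of 18 with a promoter sequence) and 2 are induced targets (of 7). The matches in Nfkb2, Rel and Tnip1 overlap further matches shifted by 1 base, and the match in Nfkbia lies 29 to 20 bases before the start. A match describes these letters and is not a measured binding site. Lack of a match does not mark a gene as no direct target. The listed targets Icam1, Il1b, Ptgs2, Tnf and Tnfaip2 have none in these bases.

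None of the 31 genes differed between Alb/AEG-1 and wild-type tumours past an adjusted p of 0.05 in limma, a linear model with moderated variances adjusted over all 22626 probe sets. By the same rule 0 of the 12393 genes (0%) and 1 of the probe sets (0.00442%) passed. At an unadjusted p below 0.05, 1 of the 31 members stood higher in transgenic tumours and 0 lower, against 3.86% and 4.47% of all genes, or 8.33% in either direction. Each value below is a log2 expression level, and each difference is Alb/AEG-1 minus wild type on that scale, with its standard error (SE). Differences of members ran from -0.40 (Il1b) to 0.56 (Icam1). Their 95% intervals lay within 1 log2 (2-fold) on both sides for 28 of the 31 genes; those of Icam1, Tnfaip2 and Il1b reached beyond it. All 21 component intervals lay within 0.75 log2.

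The median difference was 0.02 over the pathway components (12 positive, 9 negative) and -0.17 over the induced targets (2 positive, 8 negative), beside -0.01 over all genes, of which 47.8% were positive. The median of the targets turned to 0.47 with dim probe sets left out, where 3 of the 10 targets remained, and was -0.072 when a gene's probe sets were averaged. The groups did not overlap in 4 of the 31 members (Birc2, Birc3 and Ikbke higher, Nos2 lower), against 15.1% of all genes. With 3 arrays against 3, an exact permutation test of a single value cannot go below a p of 0.1.

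**Figure D1:**
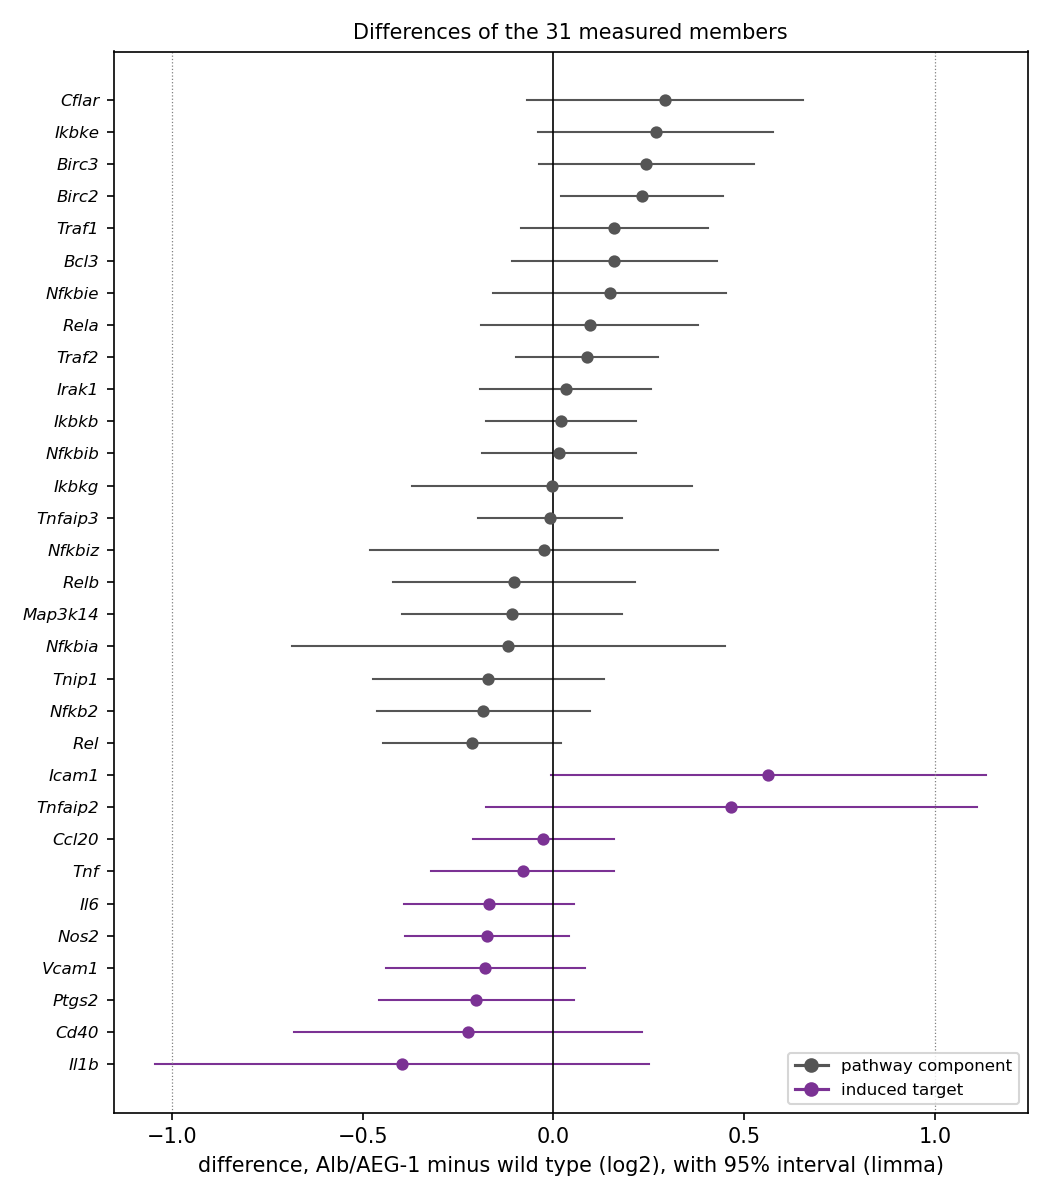
Difference in log2 expression (Alb/AEG-1 minus wild type) of the 31 measured genes, with 95% intervals from limma; dotted lines mark 1 log2, and colour separates the 21 pathway components from the 10 induced targets. All intervals but that of Birc2 cross 0, and only those of Icam1, Tnfaip2 and Il1b pass a dotted line.

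The whole tumour set was checked with markers. The 6 measured hepatocyte markers, Alb, Apoa1 and Ttr among them, had a mean level between 13.49 and 13.54 on wild-type and between 13.46 and 13.52 on Alb/AEG-1 arrays. These markers lie at the top of the scale, from percentile 97.7 (Hnf4a) to 99.996 (Alb), so their mean is a weak check of hepatocyte content. All 10 macrophage markers had a positive difference (median 0.42), with mean levels of 7.46, 7.05 and 7.15 in WT and 7.37, 7.63 and 8.02 in transgenic tumours, which overlap. Their median difference was -0.01 in the lower and 0.87 in the higher animal numbers. Mean levels of the 6 neutrophil markers ran from 4.22 to 4.94 and from 4.40 to 4.96, those of the 7 T and NK cell markers from 5.08 to 5.18 and from 4.96 to 5.12, and those of the 8 endothelial markers from 6.67 to 6.81 and from 6.72 to 6.90. Within these lists single markers went both ways. Of the neutrophil markers 3 differences were positive and 3 negative, with S100a8 at 0.53 and Mpo at -0.35. Their median was 0.19 in the lower and -0.32 in the higher animal numbers. Of the endothelial markers 4 were positive and 4 negative, with Lyve1 at 0.52. Over all marker lists, groups did not overlap in Lyve1 and the macrophage markers C1qb, Cd5l and Marco (higher in Alb/AEG-1). They also lay apart in Mpo, Alb and the stellate marker Des (lower), against 15.1% of all genes. Median differences of B cell, stellate and cholangiocyte markers were 0.06, 0.04 and 0.03, with single markers again on both sides of 0. Of the stellate markers 5 were positive and 3 negative, with Col3a1 at 0.39 and Lrat at -0.30. Of the cholangiocyte markers 3 were positive, with Sox9 at 0.37, and 2 negative. The part of any of these in the values below was not tested, and in whole tumours fewer cells of a type and less RNA per cell cannot be told apart. Mtdh itself was at 9.17 in WT and 9.37 in transgenic tumours (limma, adjusted p = 0.677). The labels do not give the species of the transgene's AEG-1, so whether this mouse probe set detects the transgene is not known, and its level is no check of the genotype labels.

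Among the subunits, Rela encodes p65, the subunit with the strong transactivation domain and the reported partner of AEG-1. Rela was at 8.78, 8.60 and 8.86 in wild-type replicates 1 to 3 and at 8.96, 8.95 and 8.62 in Alb/AEG-1 replicates 1 to 3. Alb/AEG-1 replicate 3 lay near the lowest wild-type array and the other two lay above all wild-type arrays, so the groups overlapped. The difference was 0.09 ± 0.12 (SE), with a 95% interval from -0.19 to 0.38 (limma, adjusted p = 0.823). It was 0.17 in the lower and -0.11 in the higher animal numbers.

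Rel encodes c-Rel, the subunit best known from lymphocytes. Its levels were 3.69, 3.72 and 3.76 in WT and 3.39, 3.44 and 3.69 in transgenic tumours, on a dim probe set. The overlap came from Alb/AEG-1 replicate 3, which lay just above wild-type replicate 1. The difference was -0.21 ± 0.10 (limma, adjusted p = 0.629). Leaving out Alb/AEG-1 replicate 3 gave -0.30.

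Nfkb2 encodes p100, which is processed to p52 in the non-canonical pathway. The gene was at 6.54, 6.66 and 6.58 in WT and at 6.18, 6.43 and 6.61 in transgenic tumours. Again Alb/AEG-1 replicates 1 and 2 lay below all wild-type arrays and replicate 3 did not. The difference was -0.18 ± 0.12 on a probe set whose type allows binding to related transcripts (cross-binding), and -0.02 on the other Nfkb2 probe set. Relb, the partner of p52, was at 4.42 ± 0.20 (SD, n = 3) and 4.32 ± 0.18. Over the 4 measured subunits 1 difference was positive and 3 were negative.

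Among the inhibitors, Nfkbia encodes IkappaB alpha, the inhibitor that NF-kappaB itself induces within the response and whose promoter holds the match printed above. Its levels were 9.56, 10.50 and 10.46 in WT and 10.21, 9.91 and 10.05 in transgenic tumours. Wild-type replicate 1 lay below all other arrays and the other wild-type arrays lay above them, so all Alb/AEG-1 values fell inside the wild-type range. The difference was -0.12 ± 0.24 (limma, adjusted p = 0.897), and leaving out wild-type replicate 1 gave -0.42, while leaving out replicate 2 of that group gave 0.05. The sign turned between animal number ranges, at 0.50 in the lower and -0.43 in the higher numbers. All 4 Nfkbia probe sets showed wild-type replicate 1 as the lowest wild-type array, and their differences ran from -0.22 to -0.12.

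The groups overlapped in each of the other inhibitors. Bcl3, an atypical IkappaB that works as a co-activator with p50 or p52, was at 7.45 ± 0.15 (SD, n = 3) in WT and 7.61 ± 0.15 in transgenic tumours. Nfkbie, encoding IkappaB epsilon, was at 4.01 ± 0.13 and 4.16 ± 0.22, and Nfkbib, encoding IkappaB beta, at 6.92 ± 0.10 and 6.94 ± 0.05 on a probe set open to cross-binding. Nfkbiz encodes the nuclear IkappaB zeta, needed for a subset of secondary targets. Nfkbiz was at 7.43 ± 0.41 and 7.40 ± 0.13, with wild-type replicate 3 at 6.96 as its lowest array. The dimmer Nfkbiz probe set differed by -0.27 ± 0.20 (SE), with overlapping groups. That difference was -0.70 in the lower and 0.06 in the higher animal numbers. Over the 5 inhibitors 3 differences were positive and 2 negative, with a median of 0.01.

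Among the kinases, Ikbke stood apart between groups. It encodes IKK epsilon, an IKK-related kinase that is itself inducible by inflammatory signals and shared with the interferon response. Ikbke was at 7.09, 7.10 and 6.85 in WT and at 7.54, 7.18 and 7.14 in transgenic tumours. All 3 Alb/AEG-1 values lay above all wild-type values, by a narrow gap except in Alb/AEG-1 replicate 1. The difference was 0.27 ± 0.13, 1.20-fold, and did not pass (limma, adjusted p = 0.634). It was 0.14 without Alb/AEG-1 replicate 1.

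The canonical IkappaB kinase genes differed little by their brightest probe sets. Ikbkb, the catalytic subunit IKK beta, was at 8.87 ± 0.07 (SD, n = 3) and 8.89 ± 0.08, with a 95% interval of the difference from -0.18 to 0.22. Ikbkg, the scaffold NEMO, was at 8.40 ± 0.28 and 8.39 ± 0.18, and its 4 probe sets gave differences of both signs. Map3k14, the NIK kinase that starts the non-canonical pathway, was at 5.53 ± 0.09 and 5.42 ± 0.22.

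The adaptors and survival regulators had the highest median difference of the component groups, 0.12, with 6 of 8 positive. Birc2 and Birc3 encode cIAP1 and cIAP2, ubiquitin ligases that carry the TNF receptor signal towards NF-kappaB and restrain cell death. Birc2 was at 7.39, 7.36 and 7.22 in WT and at 7.59, 7.63 and 7.45 in transgenic tumours, with no overlap. The difference was 0.23 ± 0.09, 1.17-fold, with a 95% interval from 0.02 to 0.44. This was the 1 member at an unadjusted p below 0.05 (limma, adjusted p = 0.611), and it lost that level in 6 of 14 alternatives, with differences between 0.18 and 0.28 in all of them.

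Birc3 was at 7.27, 7.33 and 6.93 in WT and at 7.34, 7.50 and 7.42 in transgenic tumours. The groups lay apart by a very small gap between wild-type replicate 2 and Alb/AEG-1 replicate 1. The difference was 0.24 ± 0.12 (limma, adjusted p = 0.634), and 0.04 on the dimmer Birc3 probe set. Cflar encodes c-FLIP, which blocks caspase-8 at death receptors and is an NF-kappaB survival target. Cflar was at 7.99, 8.39 and 8.55 in WT and at 8.78, 8.50 and 8.53 in transgenic tumours. Wild-type replicate 3 overlapped the Alb/AEG-1 arrays, and wild-type replicate 1 lay below all others. The difference was 0.29 ± 0.16 (limma, adjusted p = 0.64), it was 0.65 in the lower and 0.06 in the higher animal numbers, and all 4 Cflar probe sets were positive, from 0.04 to 0.29.

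Traf1, an inducible adaptor of TNF receptor family members, was at 3.59, 3.68 and 3.91 in WT and at 3.81, 3.92 and 3.93 in transgenic tumours. The overlap came from wild-type replicate 3 on this dim probe set, and the difference was 0.16 ± 0.11. Traf2, the adaptor that brings cIAP proteins to the receptor, was at 5.64 ± 0.06 (SD, n = 3) and 5.73 ± 0.05, and Irak1, the kinase of interleukin-1 and Toll-like receptor signalling, at 8.92 ± 0.09 and 8.95 ± 0.11.

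The 2 brakes in this group did not stand apart. Tnip1, which recruits the deubiquitinase A20 to its substrates, was at 6.80, 6.94 and 6.47 in WT and at 6.52, 6.52 and 6.67 in transgenic tumours. All Alb/AEG-1 values lay inside the wild-type range. The difference was -0.17 ± 0.13, and -0.30 without wild-type replicate 3. Tnfaip3, which encodes A20 itself, was at 3.68 ± 0.08 (SD, n = 3) and 3.67 ± 0.03 on a dim probe set.

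**Figure D2:**
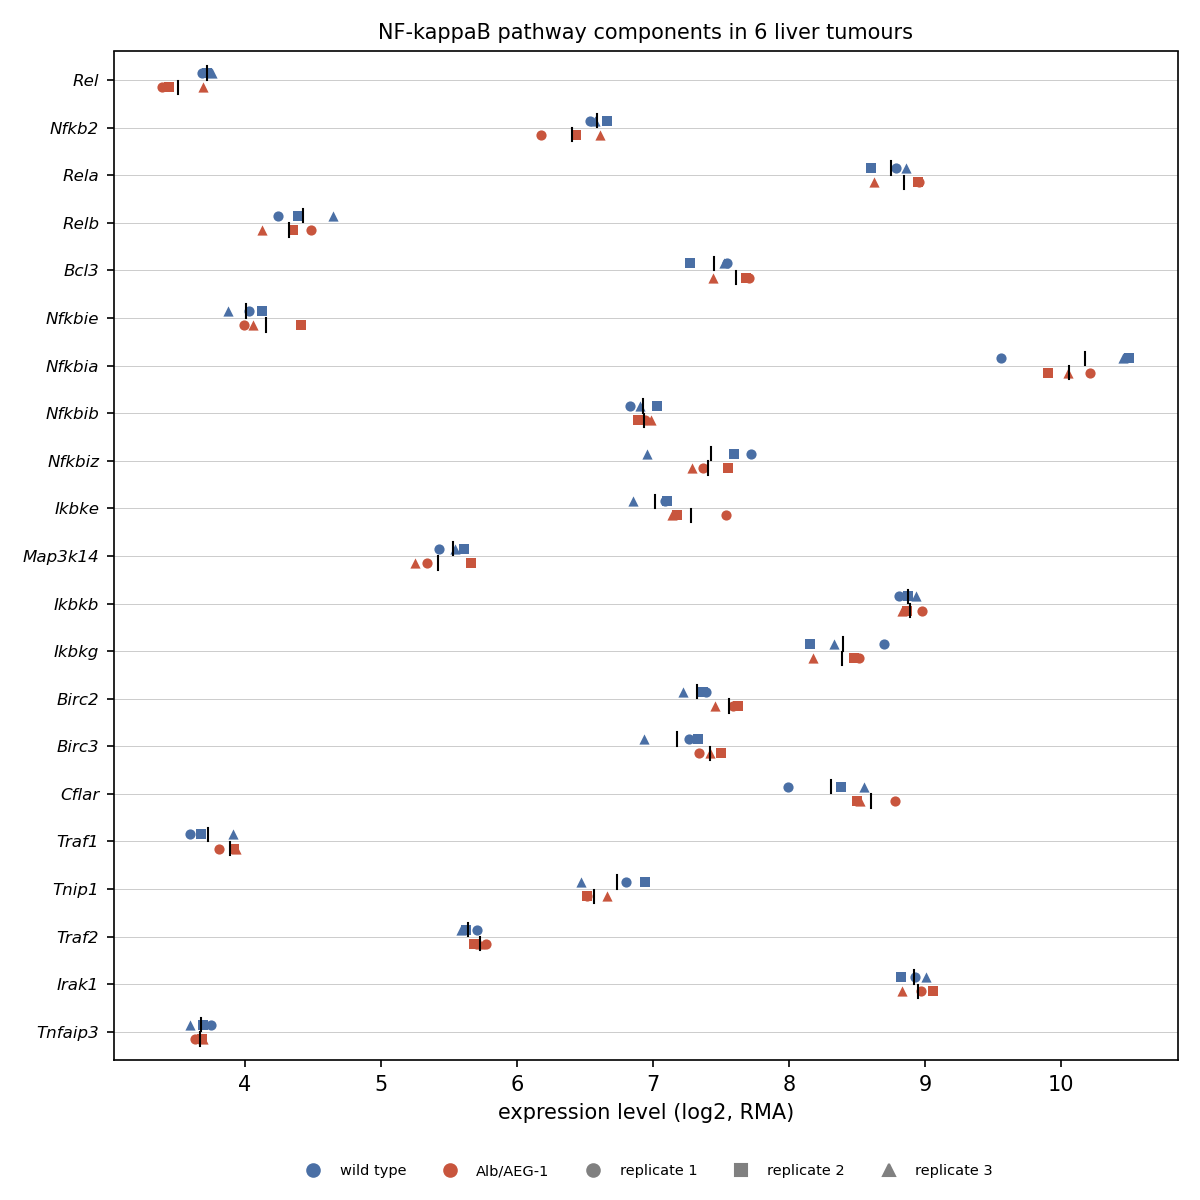
Log2 expression level of the 21 pathway components on each of the 6 arrays, ordered by role; colour gives the genotype, the symbol shape the replicate, and the black tick the group mean. Nfkbia shows wild-type replicate 1 at 9.56 below every other array, and Birc2, Birc3 and Ikbke are the genes whose groups lie apart.

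Among the induced targets, Icam1 had the largest difference. It encodes an adhesion receptor that binds leukocyte integrins and is induced by TNF on endothelium and hepatocytes. Icam1 was at 5.06, 5.79 and 5.98 in WT and at 5.90, 6.45 and 6.17 in transgenic tumours. Wild-type replicate 1 lay far below the rest, and wild-type replicate 3 overlapped Alb/AEG-1 replicate 1. The difference was 0.56 ± 0.24, 1.48-fold, with a 95% interval from -0.01 to 1.13 (limma, adjusted p = 0.618). It was 0.29 without wild-type replicate 1, 1.11 in the lower and 0.29 in the higher animal numbers. Fitted beside the animal number range it was 0.70, the 1 member by its brightest probe set at an unadjusted p below 0.05 in that fit (limma, adjusted p = 0.728). The share of all genes at that level was not counted in that fit.

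Tnfaip2, a TNF-inducible protein of membrane protrusions, was at 7.42, 6.78 and 6.68 in WT and at 7.31, 7.97 and 7.002 in transgenic tumours. Wild-type replicate 1 lay above 2 Alb/AEG-1 arrays, and Alb/AEG-1 replicate 2 was the highest. The difference was 0.47 ± 0.28 (limma, adjusted p = 0.659). Leaving out Alb/AEG-1 replicate 2 gave 0.20. That probe set is open to cross-binding, and the other Tnfaip2 probe set differed by 0.02 ± 0.21.

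The remaining 8 targets all had negative differences by their brightest probe set. Il1b, which encodes interleukin-1 beta, was at 5.73, 5.51 and 6.26 in WT and at 5.93, 4.92 and 5.47 in transgenic tumours. The arrays of both groups were spread widely, and Alb/AEG-1 replicate 1 lay above 2 wild-type arrays. The difference was -0.40 ± 0.28, with a 95% interval from -1.04 to 0.25 (limma, adjusted p = 0.693), and it ran from -0.64 without Alb/AEG-1 replicate 1 to -0.14 without Alb/AEG-1 replicate 2.

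Nos2, the inducible nitric oxide synthase, was at 4.94, 4.98 and 5.03 in WT and at 4.89, 4.87 and 4.67 in transgenic tumours. All Alb/AEG-1 values lay below all wild-type values, by a narrow gap. The difference was -0.17 ± 0.09 (limma, adjusted p = 0.64), and -0.06 in the lower and -0.34 in the higher animal numbers. Tnf, the cytokine that starts much of the response, was at 5.15, 5.49 and 5.30 in WT and at 5.21, 5.22 and 5.27 in transgenic tumours. All Alb/AEG-1 values lay inside the wild-type range, and the 95% interval of the difference ran from -0.32 to 0.16 (limma, adjusted p = 0.823).

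Il6, the cytokine that drives the acute phase response, was at 2.85, 3.06 and 2.91 in WT and at 2.85, 2.80 and 2.66 in transgenic tumours. Ptgs2, the inducible cyclooxygenase COX-2, was at 2.83, 3.19 and 3.02 in WT and at 2.74, 2.83 and 2.87 in transgenic tumours. The groups touched in Il6 and overlapped in Ptgs2, with wild-type replicate 2 highest in both. The differences were -0.17 ± 0.10 in Il6 and -0.20 ± 0.11 in Ptgs2. Both probe sets lie near the bottom of the scale, at percentile 3.14 (Il6) and 3.92 (Ptgs2) of the mean level of all probe sets. Ccl20, a chemokine for CCR6-bearing lymphocytes, was at 5.22 ± 0.06 (SD, n = 3) and 5.19 ± 0.04.

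Cd40, the co-stimulatory receptor of antigen-presenting cells, was at 5.22, 5.59 and 5.42 in WT and at 4.82, 5.59 and 5.14 in transgenic tumours. Alb/AEG-1 replicate 2 lay just above the highest wild-type array and the other two lay below all of them. The difference was -0.22 ± 0.20, and 0.10 on the other Cd40 probe set. Vcam1, an adhesion receptor of activated endothelium, was at 7.25, 7.52 and 7.30 in WT and at 7.02, 7.21 and 7.30 in transgenic tumours. The groups overlapped and the difference was -0.18 ± 0.11 (limma, adjusted p = 0.673). The dimmer Vcam1 probe sets differed by 0.17 ± 0.13 and 0.30 ± 0.16, and in the latter the groups did not overlap, with Alb/AEG-1 higher. Fitted beside the animal number range, the difference of that probe set was 0.44 and had an unadjusted p below 0.05 (limma, adjusted p = 0.637).

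**Figure D3:**
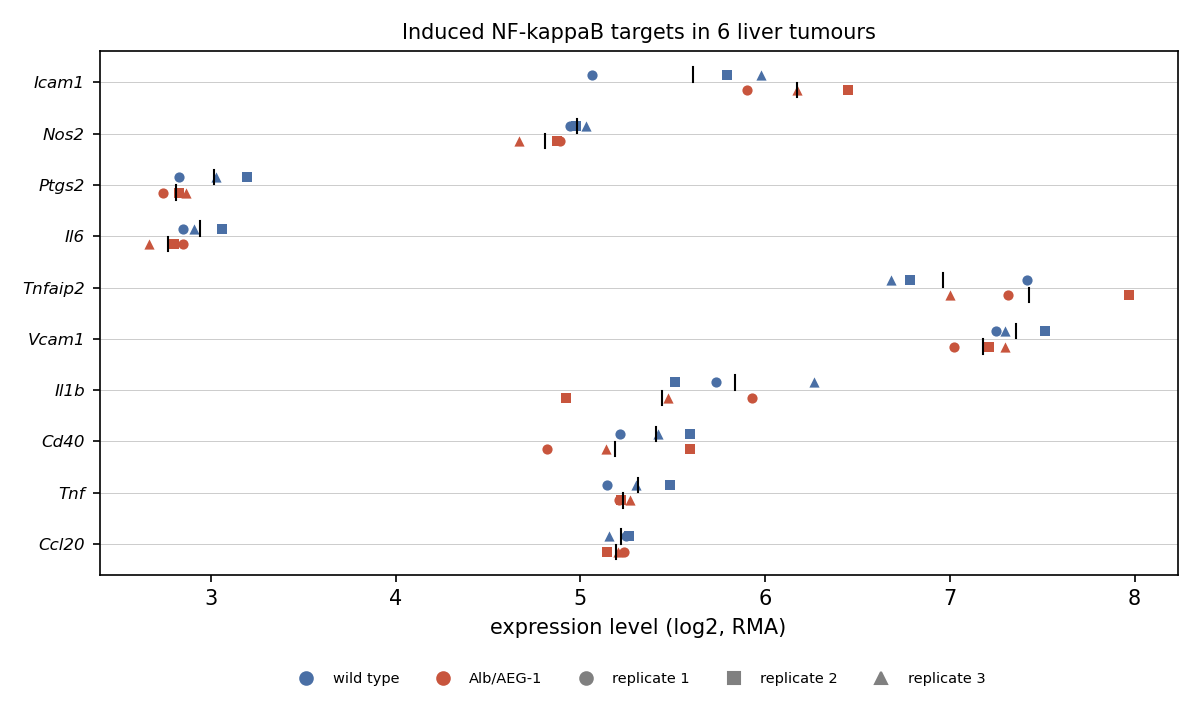
Log2 expression level of the 10 induced targets on each of the 6 arrays, with colour for genotype, symbol shape for replicate and a black tick for the group mean. Icam1 runs from 5.06 to 5.98 in WT and from 5.90 to 6.45 in transgenic tumours, and Nos2 is the target whose groups lie apart.

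Several members could be read from more than 1 probe set. Of the 13 such genes, 9 had differences of a single sign over all their probe sets, positive in Birc3, Cflar, Irak1 and Tnfaip2 and negative in Map3k14, Nfkb2, Nfkbia, Nfkbiz and Ptgs2. In Cd40, Ikbkb, Ikbkg and Vcam1 the probe sets disagreed in sign. Over all 55 probe sets of the members, 1 had an unadjusted p below 0.05 in limma, the Birc2 probe set. Of all 22626 probe sets, 1823 did.

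**Figure D4:**
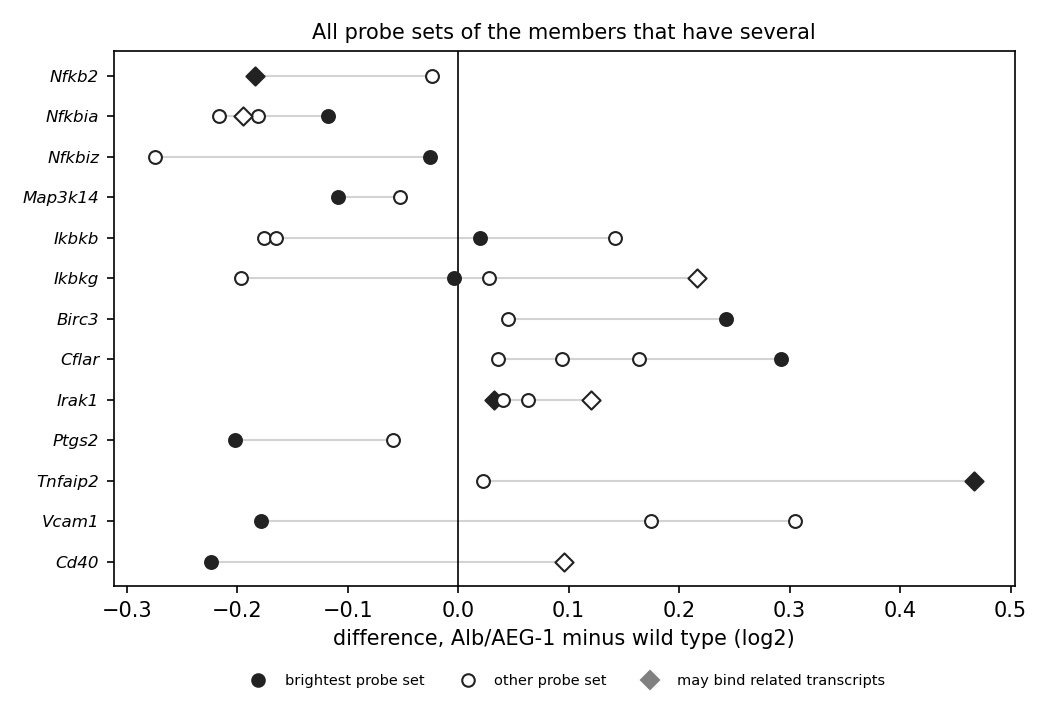
Difference in log2 expression (Alb/AEG-1 minus wild type) for all 37 probe sets of the 13 genes that have several; filled symbols are the brightest probe sets, and diamonds mark those that may bind related transcripts. The Vcam1 probe sets run from -0.18 to 0.30, and the 4 Nfkbia probe sets lie together between -0.22 and -0.12.

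The median differences of components with and without a kappaB match before a start had different signs, while single genes of both groups lay on either side of 0. This grouping was made after the values were seen, and the difference between the groups was not tested. The 6 components with a match (Nfkb2, Nfkbia, Nfkbie, Rel, Tnfaip3 and Tnip1) had a median difference of -0.14, with 5 negative and Nfkbie positive. The 12 without a match had a median of 0.13, with 10 positive and Ikbkg and Map3k14 negative. The medians kept these signs in all 14 alternatives, between -0.18 and -0.04 with a match and between 0.08 and 0.17 without. The alternatives refit the same arrays, so this is no independent support. The intensity trend and robust moderation leave every difference unchanged. With dim probe sets left out, 3 components with a match and 9 without remained. Among targets the 2 with a match, Il6 and Ccl20, had differences of -0.17 and -0.03, and the 5 without had a median of -0.08. None of these differences passed the test for a single gene.

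**Figure D5:**
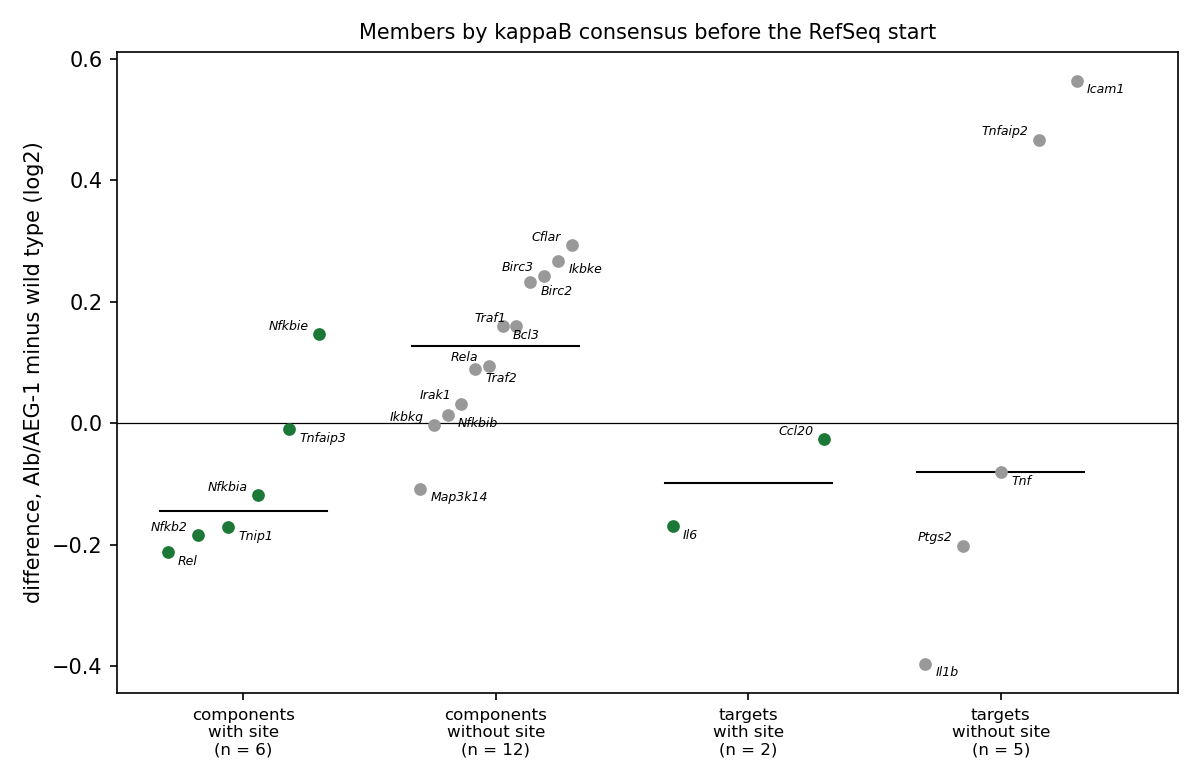
Difference in log2 expression (Alb/AEG-1 minus wild type) of the 25 members with a promoter sequence, split by kind and by a kappaB consensus match in the 250 bases before a RefSeq start; bars are medians. Components with a match have a median of -0.14 and those without a median of 0.13.

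The sign of a member's difference within the lower animal numbers equalled that in the higher for 22 of 31 members (71.0%), against 54.0% of all genes. Among components 13 of 21 kept their sign and among targets 9 of 10, the exception being Tnf. Some targets kept it by very small values, as Cd40 at -0.0071 in the lower and Ccl20 at -0.0046 in the higher numbers. The median over the targets was -0.03 in the lower and -0.18 in the higher numbers. The lower range rests on 1 wild-type array and the higher on 1 Alb/AEG-1 array, so these are descriptions.

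Other genes of the pathway were taken from lists of upstream genes and of further targets. Of 30 upstream genes 21 were measured: at an unadjusted p below 0.05, 0 stood higher and 1 lower in limma, beside the same 3.86% and 4.47% of all genes, and 0 passed over all probe sets. The one was Tnfrsf1b, which encodes TNF receptor 2. Tnfrsf1b was at 6.85, 7.03 and 6.92 in WT and at 6.71, 6.50 and 6.56 in transgenic tumours, without overlap. Its difference was -0.35 ± 0.09 (limma, adjusted p = 0.596), and it ran from -0.41 to -0.30 with each array left out in turn. Il1rap, the accessory chain of the interleukin-1 receptor, differed by -0.22 ± 0.10 with groups apart, Cd14, the lipopolysaccharide co-receptor, by 0.44 ± 0.30, and Tnfrsf11a, the receptor RANK, by -0.13 ± 0.09. The median over these 21 genes was 0.04.

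Of 26 further targets 25 were measured: at an unadjusted p below 0.05, 2 stood higher and 1 lower in limma, against 3.86% and 4.47% of all genes, and 0 passed over all probe sets. The neutrophil chemokine gene Cxcl1 was at 8.68, 8.30 and 6.83 in WT and at 8.64, 9.16 and 9.53 in transgenic tumours, where wild-type replicate 3 was far below the rest and wild-type replicate 1 overlapped. The difference was 1.17 ± 0.46 (limma, adjusted p = 0.611), and leaving out wild-type replicate 3 gave 0.62. It was 0.23 in the lower and 1.96 in the higher animal numbers. Cxcl10, a chemokine for T cells also induced by interferon, differed by 0.34 ± 0.13 with overlapping groups. Gadd45b, a stress-induced survival gene, differed by -0.34 ± 0.14 with groups apart, and Ltb, which encodes lymphotoxin beta, by 0.51 ± 0.27. The median over the 25 genes was -0.01.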

How the data were processed

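Per the labels' protocols, cRNA from 5 µg of total RNA of each of 6 liver tumours was put on an Affymetrix array. The values deposited by the authors are on the log2 scale and come from RMA (version not given), as the submitters' processing notes have it. Array medians lay within 0.0289 of each other. Control probe sets (64 of 22690) were left out. Names came from the platform annotation, updated through gene IDs against RefSeq (GRCm38.p6). Promoter sequences are RefSeq's, 250 bases before each start. Replicates were numbered in accession order, and each array has its own animal number.

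Differences were fitted with limma 3.58.1 under R 4.3.3 (2-sided, with lmFit and eBayes) on all 22626 probe sets, with Benjamini-Hochberg adjustment over them. The fit was tested on simulated data with planted changes larger than any member difference here. The simulation does not show whether differences of the size seen here can be found. Plots used matplotlib 3.10.9.

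The members and gene lists were chosen with earlier results of these data known. All 33 members are accounted for. Values on every array are given for the 5 components and 5 targets with the smallest p, for Rela, Nfkbia, Tnf, Il1b and Il6, and for members that an alternative moved across the unadjusted threshold; of the other lists the 4 genes with the smallest p are named. The per-array values of Vcam1 and the kappaB grouping were added with their values already seen. The alternatives tried were an intensity trend, robust moderation, median centring, quantile normalization, dim or cross-binding probe sets left out, the mean of all probe sets, the animal number range as a term, and each array left out.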

Additional observations from a re-analysis of the deposited data

How the results depend on the processing

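No paired analysis was possible because replicate numbers were given in accession order and the labels pair no animals. None of the 31 genes passed over all probe sets under any of the 14 alternatives. The 1 member higher at an unadjusted p below 0.05 in limma (Birc2) became 0 after quantile normalization and 2 after median centring (Birc2 and Icam1). With each array left out in turn the count ranged from 0 to 3, and that of lower members from 0 to 2. The share of all genes at that threshold was not counted under the alternatives, so these counts have no background. The median of the induced targets, -0.17, was 0.47 with dim probe sets left out, where 3 targets remained, and -0.072 when a gene's probe sets were averaged. The median of the components was -0.011 after quantile normalization.

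In 20 members the sign held under every alternative tried, and in 11 it turned at least once. After quantile normalization the turned values were -0.033 (Nfkbib), -0.018 (Ikbkb), -0.011 (Irak1), 0.037 (Tnfaip3) and 0.0031 (Ccl20). After median centring they were 0.0092 (Ikbkg) and 0.0026 (Tnfaip3), with the mean of all probe sets -0.045 (Ikbkb), 0.011 (Ikbkg) and 0.10 (Vcam1), and with the number range in the fit 0.034 (Nfkbia). With each array left out in turn, the difference ranged from -0.19 to 0.0074 in Relb, -0.42 to 0.046 in Nfkbia, -0.031 to 0.069 in Nfkbib, -0.26 to 0.12 in Nfkbiz, -0.023 to 0.053 in Ikbkb, -0.12 to 0.15 in Ikbkg, -0.020 to 0.093 in Irak1, -0.050 to 0.025 in Tnfaip3 and -0.16 to 0.0071 in Tnf. The cause was not tested. Of the members, 14 lie below the median probe set level of 5.83, 7 of them targets, and small differences there are hard to measure.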
